A study of Mus musculus with 6 samples.

Results

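The genes described here are 10 components of Notch signalling: the receptors *Notch1*, *Notch2*, *Notch3* and *Notch4*, the ligands *Jag1*, *Dll1* and *Dll4*, and the target genes *Hes1*, *Hey1* and *Hey2*. They were named as a list by their role in the pathway, not by their values, though with earlier results of these data known. They are 10 of the 24062 genes in the deposited count files. All 10 had enough reads to be tested. RNA from mouse dorsal root ganglia (DRG) and neurofibromas, which are benign tumours of peripheral nerve, was sequenced from 3 mice with the genotype Nf1fl/fl;DhhCre and 3 mice in which *Runx1* and *Runx3* were floxed as well (the double knockout). The comparison asks how expression in these tissues differs when the Schwann cell lineage lacks the transcription factors *Runx1* and *Runx3* together with *Nf1*.

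Both genotypes carried the DhhCre transgene, in which the desert hedgehog promoter drives Cre recombinase in the Schwann cell lineage, so cells of the tissue outside that lineage keep intact floxed genes. Every mouse is labelled with the mixed strain background C57BL/6-I129. The double knockout is given in the study's methods as Runx1fl/fl;Runx3fl/fl;Nf1fl/fl;DhhCre, whereas the sample labels spell it Rx1flfl;Rx3fl/fl;DhhCre and leave out the *Nf1* alleles. The labels also give the tissue as DRG for the Nf1fl/fl;DhhCre samples and as neurofibroma tumor for the double knockout, whereas the methods describe DRG and tumour for both, so genotype and labelled tissue cannot be told apart here. Age was not among the labels used here. Each library is 1 sample of whole tissue from 1 numbered mouse.

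Notch receptors are single-pass membrane proteins that are activated by ligands on a neighbouring cell. Ligand binding exposes the receptor to the sheddase ADAM10 and then to gamma-secretase, and the released intracellular domain enters the nucleus, where it joins the DNA-binding protein RBPJ and a Mastermind-like coactivator to switch on targets such as the *Hes* and *Hey* repressor genes. In peripheral nerve the pathway is known for its roles in Schwann cell development and in opposing myelination, and in vessels for arterial identity and for the coverage of endothelium by mural cells.

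Library totals were 12439296 to 16682194 counts, so that 3 counts correspond to 0.179 to 0.247 CPM, the unit of level used here, in which each count is scaled by the normalised total of its library. Among the targeted genes, *Runx1* was at 131, 141 and 172 CPM in Nf1fl/fl;DhhCre replicates 1 to 3 whereas the libraries labelled double knockout held 84.0, 78.9 and 185 CPM of it. The third of these therefore did not have less *Runx1* than the Nf1fl/fl;DhhCre libraries, and results without it are given below. Leaving it out gave a log2 fold change of -0.85 for *Runx1* (adjusted p = 0.029, limma-voom). The labels also give another sequencing run for that library than for the rest, but the mouse numbers of double knockout replicates 2 and 3 are exchanged between labels and file names, so the other run may belong to replicate 2. *Runx3* was at 15.1 to 29.9 CPM in Nf1fl/fl;DhhCre and 10.3 to 13.6 CPM in the double knockout, and neither gene passed the test (adjusted p = 0.370 and 0.104, limma-voom). The *Runx3* groups did not overlap, and *Runx3* passed with DESeq2 (adjusted p = 0.0278) and without Nf1fl/fl;DhhCre replicate 2 (adjusted p = 0.043, limma-voom). Counts over a whole gene in whole tissue check the deletion only in part, since a floxed allele may still be transcribed outside the removed exons and other cell types keep the gene. Marker levels of several cell types differed between the genotypes as well. Summed over 14 sensory neuron markers, the level was 536 to 1139 CPM in Nf1fl/fl;DhhCre and 2729 to 5946 CPM in the double knockout, and 13 of the 14 passed the test as higher. Over 12 macrophage markers the sums were 1046 to 2235 and 155 to 391 CPM, with 10 lower, and over 8 fibroblast and perineurial markers 8631 to 9822 and 3185 to 5213 CPM, with 6 lower. Replicate 2 of each genotype held skeletal muscle transcripts, at 3180 and 13780 CPM summed over 10 genes, against 10.2 to 84.6 CPM in the other 4 libraries. In bulk tissue a lower level from fewer cells of a type cannot be told apart from less RNA per cell.

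Of the 10 Notch genes, 2 differed between the genotypes in opposite directions. *Hes1* was 2.45-fold lower and *Hey2* was 2.92-fold higher in the double knockout, and both were differentially expressed genes (DEGs), defined as more than 2-fold different with an adjusted p below 0.05 over all genes tested. None of the 4 receptors and none of the 3 ligands passed the limma-voom test, none had an unadjusted p below 0.05, and edgeR's quasi-likelihood test and DESeq2 called the same 2 genes alone. Over all 15652 genes tested, 13.4% were DEGs and 19.3% passed the adjusted p at any fold, so 2 of 10 is close to the share of genes in general. The median log2 fold change was -0.01 over the 10 genes and 0.02 over all genes tested.

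**Figure D1:**
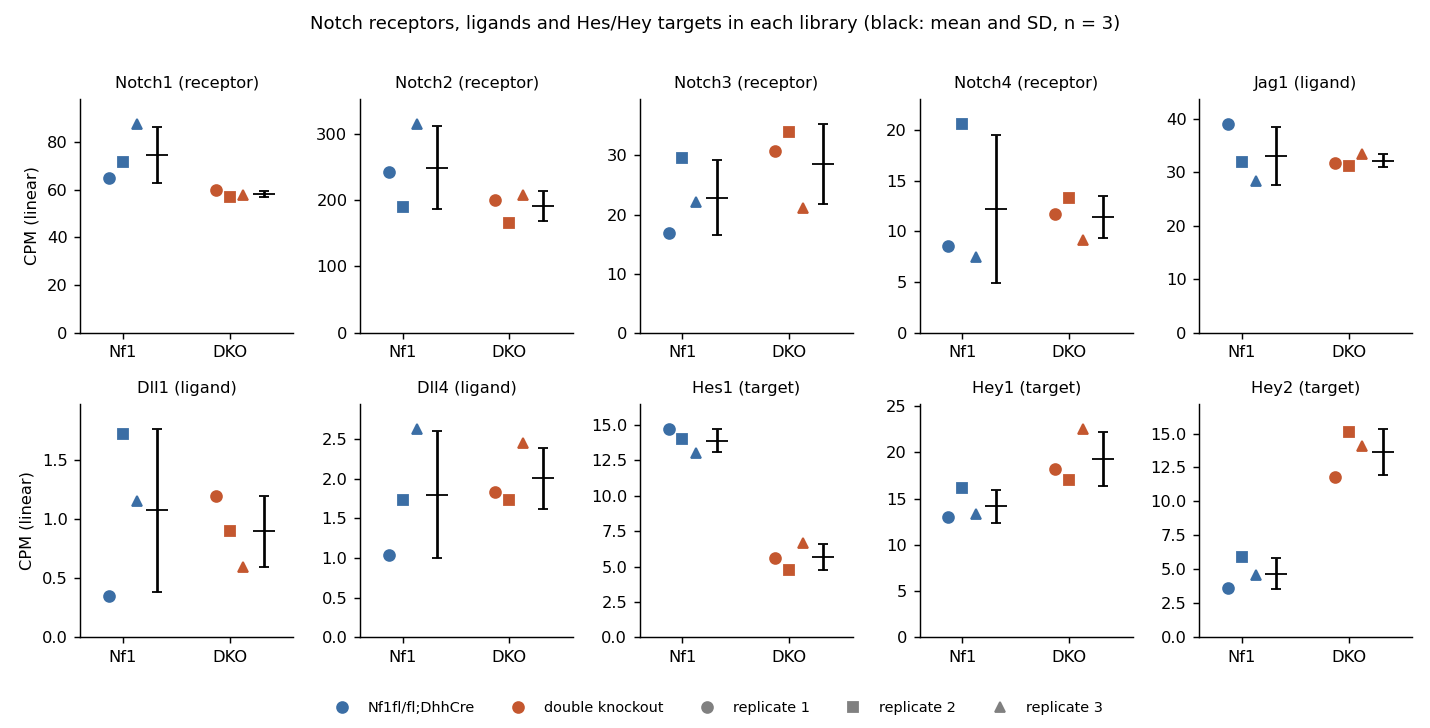
Level of each of the 10 Notch genes in each library, in CPM on linear axes that start at 0, with points for single libraries (circles, squares and triangles for replicates 1, 2 and 3) and black bars for the mean and SD of 3 libraries per genotype (Nf1: Nf1fl/fl;DhhCre; DKO: double knockout). *Hes1* sits at 13.0 to 14.7 CPM in Nf1fl/fl;DhhCre and at 4.77 to 6.67 CPM in the double knockout, and *Hey2* moves the other way, from 3.61 to 5.90 CPM up to 11.8 to 15.1 CPM.

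Because longer genes collect more reads, levels of different genes are compared as CPM per kilobase of exon. On that scale *Notch2* was the highest of the 10 genes in both genotypes, at 23.1 ± 5.82 (SD, n = 3) in Nf1fl/fl;DhhCre and 17.7 ± 2.06 in the double knockout. Next in Nf1fl/fl;DhhCre came *Hes1* at 6.83 ± 0.414, *Jag1* at 5.68 ± 0.925, *Notch1* at 5.25 ± 0.823 and *Hey1* at 4.34 ± 0.541 CPM per kilobase, and the values of neighbours in this order overlapped between libraries from *Hes1* down to *Hey1*. Below them were *Notch3* at 2.82 ± 0.784, *Notch4* at 1.52 ± 0.904 and *Hey2* at 1.02 ± 0.251, and the Delta-like ligands *Dll4* and *Dll1* were the lowest at 0.467 ± 0.207 and 0.255 ± 0.165. Here too *Notch3* overlapped with *Notch4*, *Notch4* with *Hey2* and *Dll4* with *Dll1*, whereas the steps from *Hey1* to *Notch3* and from *Hey2* to *Dll4* exceeded the spread. In the double knockout the receptors and ligands moved by at most 1 rank, but *Hes1*, at 2.78 ± 0.468, went from rank 2 to rank 7, while *Hey1* reached rank 2 at 5.91 ± 0.895 and *Hey2* rank 6 at 2.97 ± 0.371. In that genotype *Notch3*, at 3.54 ± 0.833, overlapped with *Notch1* above it and *Hey2* below it, and *Hey2* with *Hes1*. *Hey1* also overlapped with *Jag1* (5.51 ± 0.209, rank 3), so the order of these neighbours is not resolved.

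Among the receptors, *Notch1* (chr2:26457903-26516663, minus strand; all positions are in GRCm38) was at 64.9, 71.7 and 87.7 CPM in Nf1fl/fl;DhhCre replicates 1 to 3 and at 59.8, 57.2 and 58.0 CPM in the double knockout. *Notch1* is the receptor best known for opposing myelination in Schwann cells. The groups did not overlap, yet the log2 difference of -0.35 (SE 0.15, 95% interval -0.70 to 0.0034) did not pass the test (adjusted p = 0.145, limma-voom). *Notch2* (chr3:98013527-98150361, plus strand), the most abundant receptor, was at 242, 190 and 315 CPM against 200.4, 166 and 207 CPM. Its groups overlapped, and the log2 difference was -0.35 (interval -0.82 to 0.11, adjusted p = 0.250 by limma-voom). The ratio of *Notch1* to *Notch2* within a library was nearly the same in both genotypes, with a mean log2 ratio of -1.72 ± 0.270 (SD, n = 3) in Nf1fl/fl;DhhCre and -1.71 ± 0.155 in the double knockout (exact two-sided permutation p = 0.9).

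*Notch3* (chr17:32120820-32166852, minus strand) is in many tissues a receptor of pericytes and vascular smooth muscle, which together form the mural cells of vessels. Its level was 16.9, 29.5 and 22.2 CPM in Nf1fl/fl;DhhCre and 30.7, 34.0 and 21.1 CPM in the double knockout, a log2 difference of 0.31 (interval -0.32 to 0.94, adjusted p = 0.457, limma-voom). Double knockout replicate 3 lay within the range of the Nf1fl/fl;DhhCre libraries. *Notch4* (chr17:34564268-34588503, plus strand), mainly a receptor of endothelium, was at 8.53, 20.6 and 7.51 CPM against 11.7, 13.3 and 9.18 CPM. Nf1fl/fl;DhhCre replicate 2 was the highest of all 6 libraries for *Notch4*, the groups overlapped, and the interval of the log2 difference ran from -0.95 to 0.96. A *Notch4* level up to 1.94-fold higher in the double knockout lies within this interval, so the receptors are not shown to be equal between the genotypes.

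The ligand *Jag1* (chr2:137081456-137116644, minus strand), which has roles in vascular smooth muscle and in many epithelia, was at 39.0, 31.8 and 28.4 CPM in Nf1fl/fl;DhhCre and at 31.6, 31.2 and 33.5 CPM in the double knockout. The double knockout values fell inside the range of the other genotype, and the log2 difference was -0.03 (SE 0.16, interval -0.41 to 0.36; adjusted p = 0.930, limma-voom). *Dll1* (chr17:15367354-15376872, minus strand), a Delta-like ligand used widely in development, had only 5, 29 and 18 counts in Nf1fl/fl;DhhCre and 15, 11 and 9 counts in the double knockout. *Dll4* (chr2:119325784-119335962, plus strand), a ligand of arterial and sprouting endothelium, had 15, 29 and 41 counts against 23, 21 and 37 counts. At this depth both Delta-like ligands were near the limit of testing. The interval of the log2 difference ran from -1.80 to 1.59 for *Dll1* and from -0.85 to 1.32 for *Dll4*. A 2-fold difference of *Dll1* in either direction thus lies within its interval. How far low counts and how far the spread between libraries set these widths was not tested.

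*Hes1* (chr16:30064384-30067796, plus strand) encodes a basic helix-loop-helix repressor and is the most widely used direct target of Notch. It was at 14.7, 14.0 and 13.0 CPM in Nf1fl/fl;DhhCre and at 5.58, 4.77 and 6.67 CPM in the double knockout, from 203 to 235 and 58 to 101 counts. Every Nf1fl/fl;DhhCre library was above every double knockout library by a wide gap. The log2 fold change was -1.28 (SE 0.22, interval -1.80 to -0.76; adjusted p = 0.0135 by limma-voom), and the same sign was found in all 7 other fits on all libraries and in all 6 fits that left out 1 library. The call was lost in 1 of these 6, without Nf1fl/fl;DhhCre replicate 1, where the log2 fold change was -1.22 and the adjusted p 0.0561, and again with both libraries that held muscle transcripts left out (-1.15, adjusted p = 0.0524 in limma-voom).

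*Hey2* (chr10:30832359-30842801, minus strand) belongs to the related Hairy/E(spl)-with-YRPW repressors and is known for arterial endothelium, vascular smooth muscle and heart. It was at 3.61, 5.90 and 4.55 CPM in Nf1fl/fl;DhhCre and at 11.8, 15.1 and 14.1 CPM in the double knockout, from 52 to 99 and 148 to 213 counts. Every double knockout library was above every Nf1fl/fl;DhhCre library. The log2 fold change was 1.55 (SE 0.26, interval 0.94 to 2.15; adjusted p = 0.0128 with limma-voom), it ranged from 1.41 to 1.77 when single libraries were left out, and the call was again lost without Nf1fl/fl;DhhCre replicate 1 alone (adjusted p = 0.0567). With both libraries that held muscle transcripts left out it was 1.68 (adjusted p = 0.0303, limma-voom). Without double knockout replicate 3, the library whose *Runx1* level was not low, *Hes1* was at -1.42 (adjusted p = 0.0268) and *Hey2* at 1.52 (adjusted p = 0.029) in the limma-voom fit. Without replicate 2, the other library that may come from the separate run, the values were -1.17 (adjusted p = 0.0475) and 1.48 (adjusted p = 0.0399).

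*Hey1* (chr3:8663359-8667256, minus strand), the closest relative of *Hey2* among the 10 genes and likewise a target of Notch in vessels, was at 13.0, 16.2 and 13.3 CPM in Nf1fl/fl;DhhCre and at 18.3, 17.0 and 22.6 CPM in the double knockout. The groups did not overlap, but the log2 difference of 0.45 (SE 0.19, interval -0.0084 to 0.90) did not pass the test (adjusted p = 0.148, limma-voom). In all, 4 of the 10 genes (*Notch1*, *Hes1*, *Hey1* and *Hey2*) had groups that did not overlap in CPM, and over all genes tested this was the case for 42.3%.

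**Figure D2:**
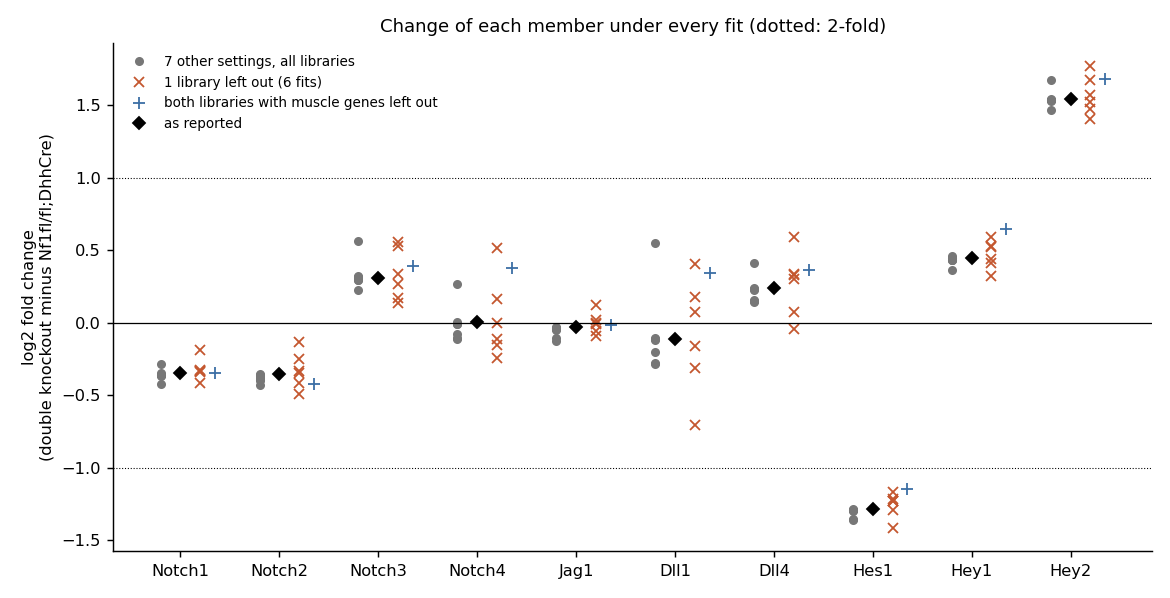
The log2 fold change of each of the 10 Notch genes (double knockout minus Nf1fl/fl;DhhCre) as reported (diamonds), under 7 other tests, scalings or filters (grey points), with 1 library left out (crosses) and with both libraries that held muscle transcripts left out (plus signs). *Hes1* stays between -1.42 and -1.15 and *Hey2* between 1.41 and 1.77, whereas *Notch4*, *Jag1*, *Dll1* and *Dll4* take both signs.

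The values of these targets can also be written as ratios within each library, which do not depend on how libraries are scaled; the ratios restate the levels above and add no separate evidence. The log2 ratio of *Hey2* to *Hes1* was -2.02, -1.24 and -1.51 in Nf1fl/fl;DhhCre and 1.08, 1.66 and 1.07 in the double knockout. *Hes1* thus had more reads than *Hey2* in every Nf1fl/fl;DhhCre library and fewer in every double knockout library. The difference was 2.86 on the log2 scale (exact two-sided permutation p = 0.1, the smallest that 3 against 3 libraries allow). For *Hey1* to *Hes1* the ratio went from 0.02 ± 0.196 to 1.76 ± 0.0625 (SD, n = 3), and the libraries of the 2 genotypes did not overlap (exact p = 0.1).

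Since Notch targets are used in several cell types of nerve, the levels of the 3 targets were set beside marker lists measured in the same libraries. Over 12 endothelial markers the sums were 199.6, 283 and 228 CPM in Nf1fl/fl;DhhCre and 320, 388 and 207 CPM in the double knockout, and 1 of the 12, *Robo4*, passed the test (higher). Over 10 mural markers the sums were 651 to 678 and 490 to 826 CPM, with *Rgs5* higher and *Cspg4* and *Mcam* lower. General Schwann cell markers summed to 2080 to 2189 and 2328 to 3180 CPM, with 3 of 10 higher, and myelin genes to 1114 to 1236 and 2892 to 3453 CPM, with 9 of 10 higher. No gene of these lists, nor of the macrophage, fibroblast or sensory neuron lists, had 0 counts in any library. Satellite glia markers, 5 in number, summed to 716 to 1183 CPM in Nf1fl/fl;DhhCre and 609 to 1190 CPM in the double knockout, with *Fabp7* higher and *Kcnj10* lower. For 7 T cell markers the sums were 12.3 to 46.7 and 4.6 to 6.8 CPM, and none of the 6 tested passed.

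Relative to the mean log2 CPM of a list in the same library, *Hes1* differed between the genotypes by -1.86 against endothelial, -1.18 against mural and -1.60 against general Schwann cell markers, and the libraries did not overlap in any of these. Against fibroblast and perineurial markers the difference was -0.26 and against macrophage markers 1.05, and there the libraries of the genotypes overlapped. *Hey2* stood higher in the double knockout against endothelial (1.0), mural (1.68) and general Schwann cell markers (1.26) without overlap. Against sensory neuron markers, which were themselves higher in the double knockout, *Hey2* differed by -0.78. Myelin genes were not among the lists compared in this way. Their median log2 fold change, 1.49, was close to the 1.55 of *Hey2*, so *Hey2* is not shown to rise beyond them. The part of these cell types in the levels of *Hes1* and *Hey2* was not tested.

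**Figure D3:**
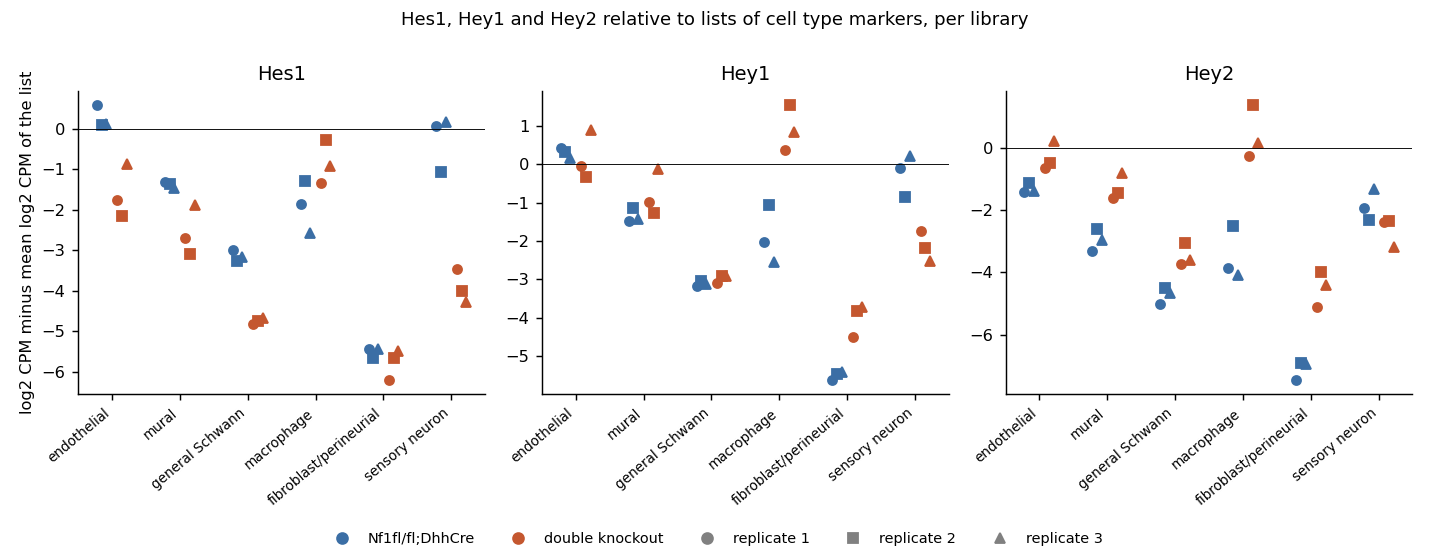
Log2 CPM of *Hes1*, *Hey1* and *Hey2* minus the mean log2 CPM of 6 marker lists in the same library, with 1 point per library (blue: Nf1fl/fl;DhhCre; orange: double knockout; shapes: replicates). The *Hes1* points of the genotypes separate against endothelial, mural, general Schwann cell and sensory neuron markers but overlap against macrophage and fibroblast markers. The *Hey2* points separate against all 6 lists, but against sensory neuron markers those of the double knockout are the lower ones. There the gap is narrow, from -2.31 in Nf1fl/fl;DhhCre replicate 2 to -2.35 in double knockout replicate 2.

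The rest of the pathway was covered by 62 further genes in 6 lists, of which 55 had enough reads to be tested. The test was passed by 2 as higher and 11 as lower in the double knockout, which is 3.64% and 20% of those tested, beside 11.1% and 8.22% of all genes. DEGs among them were *Dner* (higher), *Dtx4* and *Lfng* (both lower). The median log2 fold change of the 55 genes was -0.14. Only 4 of the 13 calls, *Dner*, *Adam10*, *Dtx4* and *Rbpj*, were kept with both libraries that held muscle transcripts left out. Without double knockout replicate 3 there were 1 higher and 5 lower pathway genes, and without replicate 2 there were 1 and 1, in fits in which 12.7% and 7.45% of all genes passed. Without Nf1fl/fl;DhhCre replicate 1 none was kept, in a fit in which 2.39% of all genes passed.

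**Figure D4:**
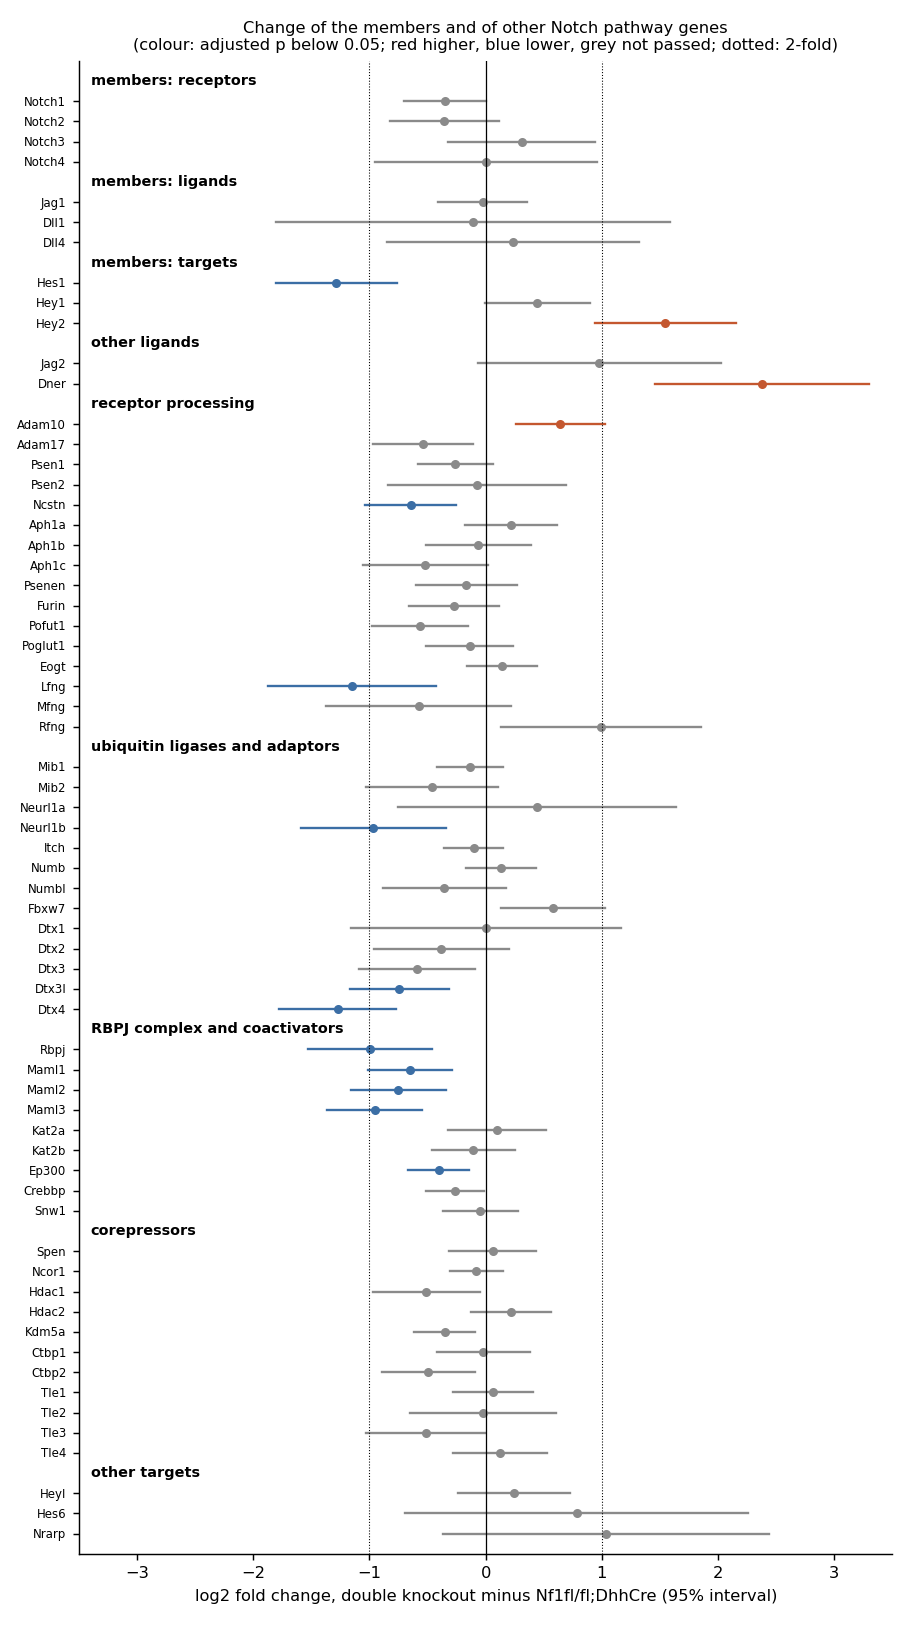
Log2 fold change (double knockout minus Nf1fl/fl;DhhCre) with its 95% interval for the 10 Notch genes and tested genes of 6 further lists, grouped by role (orange-red: passed as higher; blue: passed as lower; grey: not passed; dotted lines: 2-fold). The receptors and ligands at the top are grey, *Hes1* and *Hey2* lie on opposite sides, and 5 of the 9 genes of the RBPJ complex list are blue.

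The list with the most calls was that of RBPJ and its coactivators. Of its 9 tested genes, 5 were lower in the double knockout and none was higher, beside 8.22% and 11.1% of all genes tested. The median log2 fold change of the list was -0.40. The number of lower genes in this list was 0 without Nf1fl/fl;DhhCre replicate 1 and 0 without double knockout replicate 2, 1 without Nf1fl/fl;DhhCre replicate 3, and 3 in each of the other 3 fits that left out a library. Fewer of all genes passed in the first 3 of these fits as well (2.39%, 7.45% and 7.54%, against 19.3% with every library). It was 1 without both libraries that held muscle transcripts, where 12.9% of all genes passed. *Rbpj* (chr5:53466152-53657362, plus strand), the DNA-binding partner that all 4 receptors share, was at 186, 124 and 205 CPM in Nf1fl/fl;DhhCre and at 84.0, 70.4 and 99.95 CPM in the double knockout. The groups did not overlap, and *Rbpj* fell by 0.99 on the log2 scale (SE 0.23, adjusted p = 0.0268 with limma-voom). All 3 Mastermind-like coactivators, which bind the receptor's intracellular domain on RBPJ, were lower too. *Maml3* was at 63.0, 70.6 and 53.9 CPM against 31.2, 27.9 and 37.4 CPM (log2 fold change -0.95, adjusted p = 0.0152). *Maml2* was at 89.6, 92.5 and 89.4 CPM against 59.6, 41.2 and 62.5 CPM (-0.75, adjusted p = 0.0276). *Maml1* was at 42.9, 41.6 and 44.6 CPM against 31.6, 27.6 and 23.8 CPM (-0.65, adjusted p = 0.0289). None of these 4 genes overlapped between the genotypes. The acetyltransferase *Ep300* was at 344 ± 29.4 against 259 ± 6.96 CPM (SD, n = 3; log2 fold change -0.40, adjusted p = 0.0447, limma-voom), a call lost with edgeR's quasi-likelihood test (adjusted p = 0.0512), without the filter on low counts (0.0504), with sample quality weights (0.0552) and in all 6 fits with a library left out (0.0946 to 0.184). Its relative *Crebbp* was at 341 ± 22.2 and 284 ± 10.4 CPM and did not pass (adjusted p = 0.128), and neither did *Kat2a*, *Kat2b* or *Snw1*, with log2 differences of 0.10, -0.11 and -0.05.

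**Figure D5:**
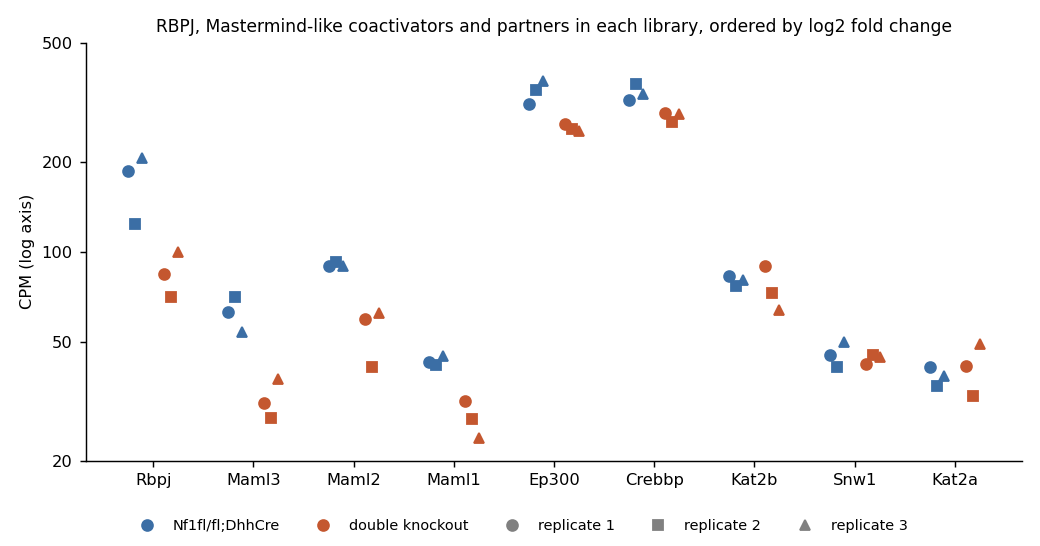
CPM on a log axis of *Rbpj*, the 3 Mastermind-like genes and 5 partners in each library, ordered by log2 fold change, with 1 point per library (blue: Nf1fl/fl;DhhCre; orange: double knockout; shapes: replicates). The colours separate for *Rbpj*, *Maml1*, *Maml2*, *Maml3*, *Ep300* and *Crebbp* and mix for *Kat2b*, *Snw1* and *Kat2a*.

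The ratio of *Rbpj* to a receptor gene within libraries restates their levels and adds no separate evidence. The log2 ratio of *Rbpj* to *Notch1* was 1.18 ± 0.368 (SD, n = 3) in Nf1fl/fl;DhhCre and 0.53 ± 0.245 in the double knockout. The difference was -0.65 (exact two-sided permutation p = 0.1, the smallest possible here). The genotypes nearly touched, at 0.790 in Nf1fl/fl;DhhCre replicate 2 and 0.786 in double knockout replicate 3. *Rbpj* was called in all 7 other fits but in 2 of 6 with a library left out, *Maml3* in 7 and 4, *Maml2* in 7 and 3, and *Maml1* in 7 and 1. Across these 13 fits their log2 fold changes kept their sign, at -1.17 to -0.81 for *Rbpj* and -1.07 to -0.81 for *Maml3*. Macrophage, fibroblast and sensory neuron sums differed between the same libraries, as given above, and their part in the levels of *Rbpj* and its partners was not tested. GENCODE lists processed copies of *Rbpj* elsewhere in the genome, and since the treatment of reads with several matches was not given in the sources used here, *Rbpj* counts are uncertain to that extent.

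Among the genes that process receptors, 1 of 16 was higher and 2 were lower, beside 11.1% and 8.22% of all genes tested. *Adam10*, the sheddase that makes the ligand-dependent cut, was at 120, 94.4 and 129 CPM in Nf1fl/fl;DhhCre and at 181, 155 and 197 CPM in the double knockout, without overlap. It rose by 0.64 on the log2 scale (adjusted p = 0.0346, limma-voom), and with scaling by library size alone the adjusted p was 0.0605. *Ncstn*, the gamma-secretase subunit nicastrin, was at 61.2, 58.6 and 79.2 CPM against 46.5, 39.1 and 40.9 CPM (log2 fold change -0.64, adjusted p = 0.0368). With a library left out, the call was kept in 2 of 6 fits for *Adam10* and in 1 of 6 for *Ncstn*. *Lfng*, a fringe glycosyltransferase that sets which ligands a receptor answers to, was at 6.10, 5.66 and 5.77 CPM against 2.47, 1.97 and 3.43 CPM. Its groups were far apart (log2 fold change -1.15, adjusted p = 0.0411 by limma-voom), but no fit with a library left out kept the call.

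Of 13 ubiquitin ligases and adaptors, 3 were lower and none higher, beside 8.22% lower and 11.1% higher among all genes tested. *Dtx4*, a Deltex E3 ligase, was at 266, 220 and 202 CPM in Nf1fl/fl;DhhCre and at 121, 68.9 and 99.8 CPM in the double knockout, and fell by 1.27 on the log2 scale (adjusted p = 0.0131). The call for *Dtx4* was kept in 5 of 6 fits with a library left out. *Dtx3l* was at 97.0, 93.5 and 135 CPM against 72.0, 58.7 and 62.1 CPM (adjusted p = 0.0324), and *Neurl1b*, a Neuralized-type ligase that acts on ligands, at 17.6, 14.1 and 13.1 CPM against 8.13, 9.95 and 5.55 CPM (adjusted p = 0.0447, limma-voom). The *Dtx3l* call was kept in 1 of 6 fits with a library left out. The *Neurl1b* call was lost with edgeR's quasi-likelihood test (adjusted p = 0.0519), without the filter on low counts (0.0528) and in all 6 fits without a library.

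Among the other ligands, *Dner*, a membrane protein with EGF repeats known mainly from neurons, was at 3.95, 3.34 and 3.14 CPM in Nf1fl/fl;DhhCre and at 12.4, 17.4 and 25.9 CPM in the double knockout. Its log2 fold change, the highest among the Notch and pathway genes tested, was 2.38 (SE 0.39, adjusted p = 0.0127, limma-voom). Sensory neuron markers were higher in the same libraries, by 5.50-fold as a sum, and their part in the *Dner* difference was not tested. *Jag2* was at 2.29 ± 0.795 and 4.63 ± 1.67 CPM (SD, n = 3; adjusted p = 0.164), and *Dll3*, *Dlk1* and *Dlk2* were too low to test. None of the other targets that could be tested passed. *Heyl* was at 18.1 ± 2.55 and 21.6 ± 4.49 CPM (adjusted p = 0.447, limma-voom) and *Nrarp*, a feedback inhibitor of Notch, at 2.36 ± 0.924 and 5.19 ± 2.71 CPM (adjusted p = 0.261). *Hes6* did not pass either (adjusted p = 0.416), and *Hes2*, *Hes3*, *Hes5* and *Hes7* were too low to test.

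The genes whose profile over the 6 libraries was most like that of *Hes1*, by the root mean square difference of centred log2 CPM among 10222 genes, were *Ptplad2* (0.0367), *Nav2* (0.0662) and *Apobec3* (0.102). For *Hey2* they were *Pde2a* (0.119), *Nova2* and *Dysf* (both 0.141). These are descriptions over 6 libraries, and the genes were picked by that likeness.

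Promoters were looked at for 3 short motifs on both strands: TGGGAA, the core bound by RBPJ, TGTGGT, the core bound by RUNX factors, and CACGTG, an E-box of the kind that HES and HEY proteins can bind. Of all 32851 RefSeq mouse promoters in GRCm38.p6, taken as the 250 bases before the transcription start, 21.6% held the first, 14.0% the second and 6.02% the third. The table held promoters for 8 of the 10 Notch genes, *Hes1* and *Hey1* being the others, and for 11 of the 13 further genes that passed. Among the matched Notch genes, *Hey2* alone held the RBPJ core, 207 to 202 bases before its start, and none held the RUNX core. Of the further genes, *Lfng* held the RBPJ core at 135 to 130 and 108 to 103 bases before its start, and an E-box at 112 to 107 bases that shares letters with the latter. *Rbpj*, *Maml2* and *Maml3* also held the RBPJ core, *Adam10* an E-box, and none the RUNX core. A gene with several promoters was counted if any of them held the motif. For *Maml2* the core lay in the promoter at chr9:13662210-13662459, whereas that at chr9:13297708-13297957, beside the annotated gene start, lacked it. A match is a run of letters and says nothing of binding. The promoters of *Hey2* (chr10:30842784-30843033, minus strand) and *Lfng* (chr5:140607091-140607340, plus strand) are shown from 5′ to 3′ because *Hey2* is the higher Notch target and *Lfng* the lower gene with the most matches, with the matches in capitals (TTCCCA is the RBPJ core read on the other strand).
Hey2: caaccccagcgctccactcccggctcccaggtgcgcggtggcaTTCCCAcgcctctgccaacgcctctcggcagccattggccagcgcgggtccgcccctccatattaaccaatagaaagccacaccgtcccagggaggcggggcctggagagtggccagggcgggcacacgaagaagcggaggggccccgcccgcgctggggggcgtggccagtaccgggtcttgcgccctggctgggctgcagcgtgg
Lfng: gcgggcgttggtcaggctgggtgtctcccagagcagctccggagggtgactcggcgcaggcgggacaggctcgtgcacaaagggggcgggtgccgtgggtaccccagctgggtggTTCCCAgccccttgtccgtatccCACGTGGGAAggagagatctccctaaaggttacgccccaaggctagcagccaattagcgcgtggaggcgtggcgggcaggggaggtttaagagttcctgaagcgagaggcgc

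Reads of some genes may be shared with neighbours, because the strand setting of the read counting was not given in the sources used here. In GENCODE M21, exons of *Notch1*, *Notch3*, *Dll1* and *Dll4* overlap noncoding genes on the opposite strand, *Notch2* overlaps an unconfirmed transcript on its own strand, *Maml1* overlaps an antisense transcript, *Ncstn* overlaps *Copa* and *Dtx3l* overlaps *Parp9*, both on the opposite strand. Exons of *Runx1* overlap an antisense transcript, those of *Dner* a microRNA on the opposite strand, and those of *Maml2* and *Ep300* microRNAs on their own strand. No overlap was annotated for exons of *Jag1*, *Hes1*, *Hey1*, *Hey2* or *Rbpj*.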

How the data were processed

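Per the study's methods, RNA was amplified, made into Nextera XT libraries and sequenced as paired ends, and the authors aligned reads to mm10 with TopHat and counted them with featureCounts; the annotation, strand setting and treatment of reads with several matches were not given in the sources used here. The deposited values are raw read counts for 24062 genes in each of 6 libraries. Mouse numbers in titles and file names differ for 4 libraries within genotypes, so replicates were numbered in accession order and pair nothing. P-values judge the difference between genotypes against the spread between these libraries. Chi-square per degree of freedom between replicates was 19.4 to 117, so no library was a copy of another of its own genotype. Pairs across genotypes were not compared in this way. Only 1 library, double knockout replicate 3 by its label or replicate 2 by the file names, came from another sequencing run, so no comparison within that run was possible.

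Genes were filtered with filterByExpr (minimum count 10, total 15) and scaled by TMM (factors 0.950 to 1.04). The test was limma-voom (limma 3.58.1, edgeR 4.0.16, R 4.3.3), two-sided, with genotype as the only term and Benjamini-Hochberg adjustment over 15652 genes. CPM used the same factors, and log2 CPM a prior count of 0.5. The other fits used edgeR's quasi-likelihood test, DESeq2 1.42.0, its size factors within limma-voom, library size alone, sample quality weights, a minimum CPM of 1 exceeded in 3 or more libraries, or no filter beyond a count above 0, and each library was left out in turn; leaving out both libraries with muscle transcripts was added after seeing the data. Ratios were compared by exact permutation of libraries. Scripts were tested on simulated data. Named genes are the 10 Notch genes, pathway genes with an adjusted p below 0.05 and up to 3 others of highest mean CPM per list, the 3 genes most like each called Notch gene (average log2 CPM of at least 3), and *Runx1*, *Runx3* and *Nf1* (302 ± 30.8 and 290.3 ± 44.5 CPM; SD, n = 3); any other was named after its values were seen. The values of 1 pathway gene are not reported here. The Notch genes and all lists were chosen with earlier results of these data known. Positions and exon lengths came from GENCODE M21 (GRCm38), and the macrophage marker *Adgre1* was matched as *Emr1*. Plots were made with matplotlib 3.10.9 (Python 3.11.15).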

Additional observations from a re-analysis of the deposited data

How the results depend on the processing

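Under all 7 other tests, scalings and filters the same 2 Notch genes, *Hes1* and *Hey2*, were called. With single libraries left out, the number called ranged from 0 to 2, both as DEGs and by adjusted p alone, and DEGs over all genes ranged from 362 to 2285. No Notch gene was called without Nf1fl/fl;DhhCre replicate 1, which gave the 362, while leaving out Nf1fl/fl;DhhCre replicate 3 or double knockout replicate 2 gave 1033 and 1018 DEGs, and 2 Notch genes were still called in each. With both libraries that held muscle transcripts left out, a choice made after seeing the data, the number called was 1 (*Hey2*) by either rule, and DEGs numbered 1752. The other fits on all libraries gave 2087 to 2907 DEGs, and the cause of these shifts was not tested. Counts of higher and lower pathway genes were 1 and 13 with library size alone, 3 and 14 with DESeq2 and 2 and 3 without the libraries that held muscle transcripts, where 19.2%, 29.2% and 12.9% of all genes passed. Among the 10 Notch genes, *Dll1* and *Dll4* had the fewest counts, at 5 to 41 a library. No paired analysis was possible because replicate numbers only follow accession order.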
